A study of Mus musculus with 6 samples.

Results

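Galectins are small proteins that bind the galactose-containing sugars of glycoproteins and glycolipids, inside cells and, after release without a signal peptide, at the cell surface. S100 proteins are small proteins with a pair of EF-hand motifs, most of them calcium-binding, that work mostly as dimers. Many change the activity of their partners when calcium rises, and annexins are among the partners of the family. In fat, galectin-3 is best known as a product of macrophages, whereas several S100 genes are read from monocytes, dendritic cells and connective tissue cells alike.

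The 8 genes described here were chosen by symbol from the 33456 genes in the deposited count tables, and all 8 were found there. The galectin family was represented by Lgals1, Lgals3 and Lgals9, together with Lgals3bp, which encodes a secreted glycoprotein that galectins bind. The S100 family was represented by S100a4, S100a6, S100a10 and S100a11.

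Cells came from mouse visceral (epididymal) fat and were sorted for CD45, an antigen of leukocytes, together with CD11b, an integrin chain of myeloid cells. The diet label of 3 samples was HFD, taken here as high-fat diet from the obesity named in the title, and that of the other 3 was control. Age, strain, sex, weeks of feeding and the number of animals behind a sample were not given in the labels. Nothing there says that samples came from separate animals, so each p-value reflects no more than how far these libraries vary, and that variation may be technical.

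The libraries shared cell barcodes, which bears on every value below. Of 2195 distinct barcodes, 1082 (49.3%) were listed in more than 1 sample. Each barcode was therefore counted only in the sample where it had most unique molecular identifiers (UMIs, counted RNA molecules), with no ties. After filters this left 453, 295 and 380 cells in HFD 1, 2 and 3 and 388, 260 and 338 cells in control 1, 2 and 3. Median UMIs per cell were 10079, 9785 and 9261 in the HFD samples and 8519, 6300 and 6505 in the control samples. Total UMIs per sample ranged from 3587086 to 5708323 in HFD and from 1997647 to 3874349 in control. Values are given as counts per 1000000 UMIs of the same sample or class (CPM), and changes as log2 fold changes of HFD over control with their standard error.

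Cells were clustered without the galectin, S100 and annexin genes, and 15 classes resulted, named only from marker genes. Lipid-associated macrophage-like cells (Trem2, Gpnmb and related genes) numbered 277 in HFD and 42 in control, of which control 1 held 1. Perivascular resident macrophage-like cells (Lyve1, Cd163) numbered 42 in HFD and 268 in control, and other macrophage-like cells (led by Gdf15 and Ms4a7) 232 in HFD and 39 in control. Fibroblast-like cells, which a CD45 sort should remove, numbered 207 in HFD and 24 in control. Classes so unequal in size mean that a level summed over all cells mixes class shares with levels per cell, and in such sums more cells of a type and more RNA per cell cannot be told apart. Class names were rebuilt here and doublets were not removed.

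Lgals3 (ENSMUSG00000050335), which encodes galectin-3, was led by lipid-associated macrophage-like cells, not by macrophage-like classes in general. Pooled over samples, it stood at 12464 CPM in lipid-associated macrophage-like cells, the highest of the 15 classes, and at 643 in fibroblast-like cells, the lowest, a 19.4-fold range. Next after the highest came cycling cells at 9561, where no sample reached 20 cells. The unnamed class led by Hbb-bs and Hba-a1 followed at 5911 (5540 to 7072, 3 samples). Over samples with at least 20 cells of a class, it ranged from 11463 to 13108 in lipid-associated macrophage-like cells (4 samples) and from 3644 to 4148 in other macrophage-like cells (3 samples). Those ranges did not overlap. Because of the class sizes, such samples were mostly of 1 diet: HFD for other macrophage-like and fibroblast-like cells, control for perivascular resident macrophage-like, monocyte-like and cDC2-like cells, so that class and diet cannot be told apart in these ranges. Monocyte-like cells (1986 to 2085, 2 samples) and type 2 conventional dendritic cell-like (cDC2-like) cells (1133 to 2018, 3 samples) overlapped each other. Perivascular resident macrophage-like cells had 1627 to 1935 in HFD and 620 to 853 in control, under the lipid-associated class in both diets. In each diet they were also under the monocyte-like and cDC2-like cells, without overlap. Pooled, they ranked 14 of the 15 classes, at 936. Fibroblast-like cells had 661 to 711 in HFD and 210 and 512 in control 1 and 3, so that the resident class was above them, without overlap, in each diet.

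Lgals1 (ENSMUSG00000068220), which encodes galectin-1, also peaked in lipid-associated macrophage-like cells, at 4073 pooled CPM. Its range over the 15 classes was 8.72-fold, down to 467 in migratory dendritic cell-like cells. Fibroblast-like cells (2028 to 2206, 3 samples) and other macrophage-like cells (1951 to 2164, 3 samples) did not differ beyond their spread. Lgals1 was thus shared by macrophage-like and fibroblast-like cells, unlike Lgals3.

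Lgals3bp (ENSMUSG00000033880) and Lgals9 (ENSMUSG00000001123) were low and had no lipid-associated peak. Pooled over both diets, both were highest in serous cavity macrophage-like cells, at 342 CPM for Lgals3bp and 100.2 for Lgals9, in a class of 40 cells in which no sample reached 20. The next class for both was an unnamed one led by the interferon-response genes Cxcl9 and Gbp2 (273 for Lgals3bp and 85.6 for Lgals9), of whose 55 cells 33 came from HFD 3. That order did not hold within each diet. Pooled per diet, Lgals9 was at 33.6 in HFD and 123 in control in the serous class, 64.2 in HFD and 208 in control in the Cxcl9-led class, and 78.3 in HFD and 123 in control in fibroblast-like cells. Galectin-9 is known as a ligand of Tim-3, an inhibitory receptor on T cells. The lowest levels were 34.4 for Lgals3bp in the unnamed class led by Ear2 and Lyz1 and 13.7 for Lgals9 in migratory dendritic cell-like cells.

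S100a4 (ENSMUSG00000001020), known as metastasin for its part in cell motility, was led by dendritic cells, T cells and monocytes. Pooled levels were 1321 CPM in migratory dendritic cell-like cells, 1084 in T cell-like cells, 1076 in the Ear2-led class and 1013 in monocyte-like cells. No sample reached 20 migratory dendritic cell-like or T cell-like cells, so their lead rests on pooled cells only. Fibroblast-like cells were lowest at 47.2, a 28.0-fold range and the widest of the 8 genes. The Ear2-led class (1018 to 1220, 3 samples), monocyte-like cells (975 to 1218, 2 samples), the unnamed Retnla-led class (907 to 1205, 3 samples) and cDC2-like cells (851 to 1091, 3 samples) overlapped. All stood above other macrophage-like cells (305 to 355, 3 samples), but the latter were HFD samples and the others control samples.

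S100a6 (ENSMUSG00000001025, calcyclin) and S100a11 (ENSMUSG00000027907, calgizzarin) were led by fibroblast-like cells instead. S100a6 stood at 3487 pooled CPM in fibroblast-like cells (3236 to 3590, 3 samples), above the Ear2-led class (2537 to 3033, 3 samples). The lowest pooled class, the Cxcl9-led one, had 941, so that the range was 3.71-fold, but pooled over HFD that class had 1019 and 3 others were lower. S100a11 stood at 1502 in fibroblast-like cells (1443 to 1566, 3 samples), followed by migratory dendritic cell-like cells at 1255, where no sample reached 20 cells. Its lowest level was 188 in perivascular resident macrophage-like cells, a 7.997-fold range. Its fibroblast-like and cDC2-like (965 to 1410, 3 samples) ranges did not overlap. S100a10 (ENSMUSG00000041959), the partner of annexin A2, was the most even of the 8 genes, with a 2.43-fold range. It had 1244 in the Ear2-led class, 1191 in T cell-like cells, where no sample reached 20 cells, and 1188 in fibroblast-like cells. In control, the 1134 and 1725 of fibroblast-like cells in control 1 and 3 spanned the Ear2-led class (1205 to 1274, 3 samples).

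**Figure D1:**
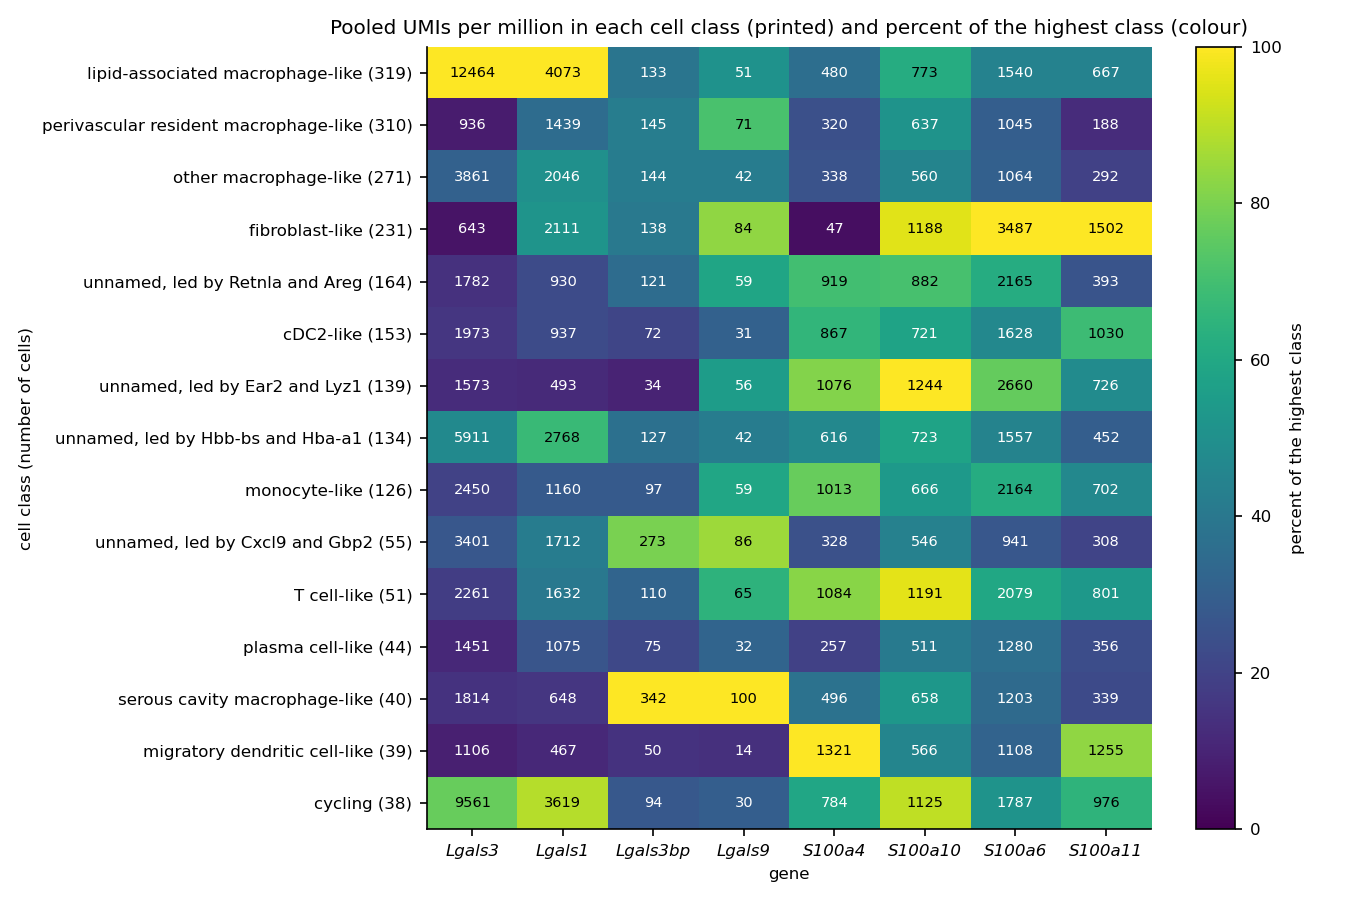
Heat map of the 8 genes (columns) in the 15 cell classes (rows, with the number of cells), where the printed number is the pooled level in CPM and the colour is the percent of the gene's highest class. Lgals3 and Lgals1 peak in lipid-associated macrophage-like cells (12464 and 4073), S100a6 and S100a11 in fibroblast-like cells (3487 and 1502), and S100a4 is lowest there (47.2).

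S100a4 and S100a6 lie close together on chromosome 3, with S100a5 between them in the RefSeq annotation of GRCm38.p6, yet S100a6 was at its highest and S100a4 at its lowest in fibroblast-like cells. S100a11 and S100a10 are direct neighbours on the same chromosome. Sequences upstream of the transcription start are shown to set the expression patterns beside the DNA they start from. They are those of Lgals3, highest in lipid-associated macrophage-like cells, S100a4, lowest in fibroblast-like cells, and the fibroblast-led S100a6 and S100a11. Each is the 250 bases before the RefSeq start (build GRCm38.p6, plus strand, 5′ to 3′): chr14:47373610-47373859 for Lgals3, chr3:90603520-90603769 for S100a4, chr3:90612644-90612893 for S100a6 and chr3:93520246-93520495 for S100a11. The submitters' notes name the older build mm9, and these positions were not used for any count. Capitals mark matches, on either strand, to 5 motifs. The AP-1 site was searched as TGANTCA, and the E-box, bound by basic helix-loop-helix factors, as CACGTG. The GC box, bound by Sp1 and its relatives, was searched as GGGCGG, and the TATA box of core promoters as TATAAA. The site of ETS factors such as PU.1, the myeloid regulator, was searched as GAGGAAG. No match overlapped another.

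Lgals3: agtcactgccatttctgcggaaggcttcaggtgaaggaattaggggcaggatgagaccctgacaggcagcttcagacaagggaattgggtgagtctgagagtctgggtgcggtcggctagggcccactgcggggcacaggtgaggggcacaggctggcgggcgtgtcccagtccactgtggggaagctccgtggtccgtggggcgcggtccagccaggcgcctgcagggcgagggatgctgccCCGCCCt

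S100a4: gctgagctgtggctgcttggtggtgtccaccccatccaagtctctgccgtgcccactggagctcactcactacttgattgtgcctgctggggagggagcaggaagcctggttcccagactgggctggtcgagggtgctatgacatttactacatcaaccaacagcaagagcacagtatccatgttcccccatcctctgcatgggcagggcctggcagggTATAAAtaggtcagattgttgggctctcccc

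S100a6: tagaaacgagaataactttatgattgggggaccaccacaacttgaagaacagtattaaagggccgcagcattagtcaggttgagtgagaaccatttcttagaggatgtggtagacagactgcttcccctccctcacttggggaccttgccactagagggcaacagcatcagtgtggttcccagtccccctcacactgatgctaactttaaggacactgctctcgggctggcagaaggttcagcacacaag

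S100a11: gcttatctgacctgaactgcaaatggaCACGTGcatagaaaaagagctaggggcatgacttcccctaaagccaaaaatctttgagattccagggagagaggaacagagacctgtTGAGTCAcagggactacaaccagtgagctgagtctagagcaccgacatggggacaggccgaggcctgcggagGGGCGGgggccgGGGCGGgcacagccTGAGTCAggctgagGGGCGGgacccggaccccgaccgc

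The S100a4 stretch held a TATAAA that begins 31 bases before the start, and 12.4% of 32851 promoters of this length hold one. The S100a11 stretch held TGAGTCA beginning 136 and 38 bases before the start (6.75% of promoters hold a TGANTCA), 1 CACGTG (6.02%) and 3 GGGCGG (32.7%). The Lgals3 stretch held 1 GC box, and none of the 5 motifs was found in the S100a6 stretch. These matches describe the letters only. RefSeq sequences were at hand for 6 of the 8 genes.

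Free RNA from broken cells can be counted in any droplet, so the level in a class that should not make a message was set beside that of known macrophage messages. In HFD samples, fibroblast-like cells carried C1qa, Lyz2 and Csf1r, which macrophages make, at 7.33%, 7.73% and 7.99% of their macrophage-like level. Lgals3 stood at 7.68% (682 ± 25.8 CPM in fibroblast-like and 8880 ± 901 in macrophage-like cells, SD, n = 3), at the level of these background genes. Fibroblast expression cannot be told apart from free RNA or doublets at that level, and its source was not tested. S100a4 stood slightly above, at 11.1% (10.1% to 12.6% over the 3 samples). Lgals1 was at 64.2%, Lgals3bp at 98.4%, Lgals9 at 168%, S100a10 at 171%, S100a6 at 263% and S100a11 at 295%, all above this background. In the other direction, the fibroblast genes Dcn and Col3a1 reached 0.921% and 0.634% of their fibroblast-like level in macrophage-like cells, so that the S100a6 (38.1%) and S100a11 (33.9%) levels there were above that background.

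**Figure D2:**
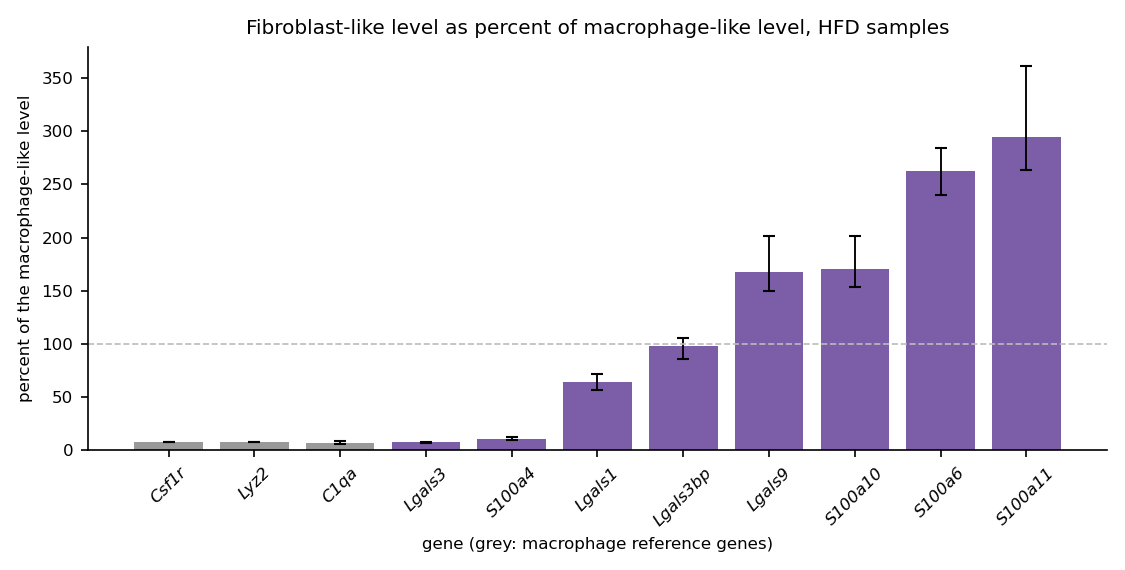
Bars give the level in fibroblast-like cells as percent of that in macrophage-like cells over the 3 HFD samples, and whiskers the lowest and highest sample. Lgals3 (7.68%) sits with the macrophage genes Csf1r, Lyz2 and C1qa in grey, while S100a6 (263%) and S100a11 (295%) rise above the dashed line that marks equal levels.

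Summed over all cells of a sample, Lgals1 and Lgals3 were higher in HFD and 3 S100 genes were lower. Of the 8 genes, 2 rose (Lgals1 and Lgals3), 3 fell (S100a4, S100a6 and S100a10) and 3 did not pass the test at an adjusted p of 0.05. Among all 10450 genes tested, 15.2% were called higher and 17.2% lower in HFD, so calls were common throughout. The median log2 fold change of the 8 genes was -0.21 and that of all genes tested -0.02.

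Lgals3 had 7421, 6393 and 6682 CPM in the 3 HFD samples, against 1082, 2067 and 3815 in the 3 control samples. Every HFD sample was above every control sample, and the control samples spread widely, control 3 being highest. The log2 fold change was 1.43 ± 0.35 (adjusted p = 0.0129). Lgals1 had 3019, 2833 and 2755 CPM in HFD, against 799, 1058 and 1461 in control. Here too the diets did not overlap and control 3 was the highest of the controls. Its log2 fold change was 1.24 ± 0.17 (adjusted p = 0.00104).

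Several marker lists were higher in HFD along with these genes. The 10 lipid-associated macrophage markers summed to 9121 to 11947 CPM in HFD and 1936 to 5804 in control, with 10 of 10 higher on average in HFD and none at 0. The 8 fibroblast markers summed to 6445 to 7506 in HFD and 965 to 2201 in control, with 8 of 8 higher. The general macrophage markers summed to 24569 to 27192 in HFD and 15245 to 19357 in control, with 7 of 10 higher. The endothelial list had 815 to 862 in HFD and 182 to 788 in control, with 4 of 7 higher. The perivascular resident list went the other way, with 1146 to 1215 in HFD and 2283 to 3316 in control, and 2 of 10 higher. With the fibroblast-like cells left out, Lgals3 rose by 1.59 and Lgals1 by 1.35. The part of the lipid-associated cells in the rise over all cells was not tested in that sum, and the levels within classes are given further on.

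S100a4 had 448, 362 and 482 CPM in HFD, against 664, 875 and 823 in control. The HFD samples were all lower, without overlap. The log2 fold change was -1.01 ± 0.14 (adjusted p = 0.000924), and -0.85 without the fibroblast-like cells. Of the 8 classical monocyte markers 1 was higher on average in HFD, none was at 0, and the list summed to 258 to 320 in HFD and 446 to 974 in control. Monocyte-like cells held 6.47% ± 2.33 of S100a4 UMIs in HFD and 9.996% ± 7.52 in control (SD, n = 3 each). The Retnla-led class held 1.29% ± 1.19 in HFD and 19.4% ± 4.79 in control. For the Ear2-led class it was 0.531% in HFD and 20.3% in control. Lipid-associated macrophage-like cells went the other way, with 35.1% ± 10.4 in HFD and 6.55% ± 8.37 in control. The part of the monocyte list or of these classes in the fall was not tested.

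S100a6 had 1611, 1578 and 1527 CPM in HFD, against 1601, 2126 and 2045 in control. Control 1 lay within the HFD values and the other controls above them. The log2 fold change was -0.43 ± 0.11 (adjusted p = 0.0146). S100a10 had 778, 701 and 745 in HFD, against 776, 931 and 864 in control, with control 1 again within the HFD range. Its log2 fold change was -0.35 ± 0.09 (adjusted p = 0.0206). Neither call was firm: both were lost without HFD 1, HFD 2, HFD 3 or control 2, when the adjusted p reached 0.0536 for S100a6 and 0.0823 for S100a10. Both were lost as well when only library totals set the scale (-0.29, adjusted p = 0.0698 for S100a6 and -0.21, adjusted p = 0.117 for S100a10).

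S100a11 had 649, 627 and 665 CPM in HFD and 532, 724 and 602 in control, Lgals3bp 134, 128 and 144 in HFD and 159, 105 and 75.9 in control, and Lgals9 51.2, 48.2 and 47.1 in HFD and 81.8, 55.1 and 42.4 in control. For all 3 the control samples spanned the HFD samples. Their log2 fold changes were -0.08 ± 0.12 for S100a11, 0.10 ± 0.23 for Lgals3bp and -0.46 ± 0.22 for Lgals9 (adjusted p = 0.651, 0.785 and 0.139). Lgals9 passed the test without control 3 (-0.67, adjusted p = 0.0153) and Lgals3bp without control 1 (0.47, adjusted p = 0.0457). The sign for S100a11 turned with the scaling, to 0.06 on library totals, which moved the median of all genes by more than 0.1, to 0.13. On that scale 2322 genes were called higher and 1271 lower, against 1593 higher and 1796 lower with size factors.

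**Figure D3:**
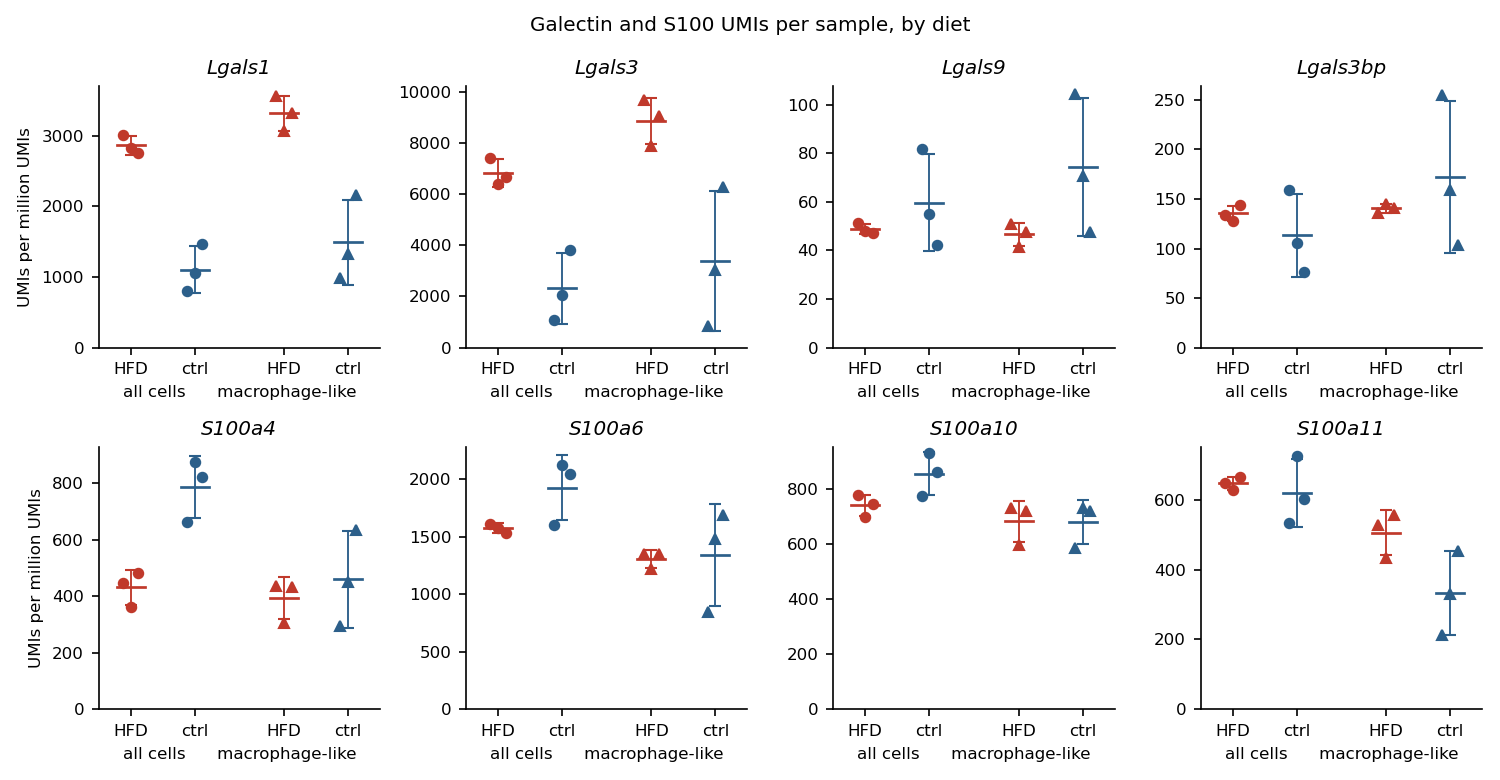
CPM of each gene in the 3 HFD (red) and 3 control (blue, ctrl) samples, over all cells (circles) and over macrophage-like cells (triangles); lines and whiskers are the mean and SD. Over all cells the HFD samples of Lgals3 (6393 to 7421) lie above and those of S100a4 (362 to 482) below every control sample.

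Other ways of counting shared barcodes gave other sizes. Counted in every sample that listed them, the barcodes gave a log2 fold change of 0.59 for Lgals3, 0.60 for Lgals1 and -0.63 for S100a4, each with an adjusted p under 0.05. Kept only where listed in exactly 1 sample, they gave 1.33 for Lgals3, 1.07 for Lgals1 and -1.22 for S100a4. In that subset S100a6 was at -0.13 (adjusted p = 0.438), S100a10 at 0.06 (adjusted p = 0.741) and S100a11 rose by 0.68 (adjusted p = 0.0015).

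The next comparison asked how the genes differed once only macrophage-like cells were summed, 562 from HFD and 378 from control. Of the 8 genes 1 rose, Lgals1, and 0 fell. At an unadjusted p under 0.05, 3 were higher and 1 lower, and DESeq2 likewise called 1 higher and 0 lower. Among the 8268 genes tested, 8.19% were called higher and 11.6% lower. The median log2 fold change of the 8 genes was -0.11 and that of all genes -0.04.

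Lgals1 had 3564, 3071 and 3329 CPM in macrophage-like cells of HFD, against 990, 1331 and 2163 in control. The diets did not overlap. The log2 fold change was 1.06 ± 0.23 (adjusted p = 0.0124), a call that was lost without HFD 1 (adjusted p = 0.0529), without control 2 (adjusted p = 0.0641) or with barcodes counted in every sample that listed them (0.36, adjusted p = 0.051). Lgals3 had 9684, 7905 and 9050 in HFD, against 829, 3051 and 6269 in control. All HFD samples were higher, but the controls ran over a wide span. Control 1, 2 and 3 held 1, 12 and 29 lipid-associated cells, and the part of these cells in the span was not tested. The log2 fold change of Lgals3 was 1.31 ± 0.51 and did not pass the test (adjusted p = 0.102); it passed without control 1 (0.86, adjusted p = 0.0333) and without control 3 (2.13, adjusted p = 0.00499). It was also called in 6 of 14 other settings. These were no filter on low counts (1.37, adjusted p = 2.15e-35), no filter on cells (1.94, adjusted p = 0.0125) and barcodes of exactly 1 sample (2.00, adjusted p = 0.000194). The others were thinned cells (1.65, adjusted p = 0.00324), clusters at resolution 0.5 (2.09, adjusted p = 0.00957) and the sum without the lipid-associated class. The fit with no filter on low counts had a fold change near that of the main fit, on the same libraries. So small an adjusted p from 3 libraries per diet is not taken at face value.

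S100a11 had 527, 434 and 558 CPM in macrophage-like cells of HFD, against 213, 331 and 454 in control. Control 3 lay within the HFD range. The log2 fold change was 0.52 ± 0.23 (adjusted p = 0.138). Lgals9 had 50.9, 41.6 and 47.7 in HFD and 105, 70.8 and 47.8 in control, with a log2 fold change of -0.79 ± 0.25 that missed the threshold (adjusted p = 0.0507). S100a4 (-0.32), S100a6 (-0.13), S100a10 (-0.09) and Lgals3bp (-0.41) had adjusted p-values between 0.311 and 0.702, and the fall of S100a4 seen over all cells was not called within macrophage-like cells. Without control 3, S100a11 (0.84, adjusted p = 0.0102), Lgals9 (-1.03, adjusted p = 0.00351) and Lgals3bp (-0.67, adjusted p = 0.0238) passed the test as well.

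These values changed with the macrophage-like classes summed, an alternative chosen after seeing the data. Without the lipid-associated class, Lgals3 rose by 1.79 (adjusted p = 3.4e-05), Lgals1 by 0.74 (adjusted p = 0.00166), and Lgals9 fell by 1.03 (adjusted p = 0.0149). Of 7000 genes tested there, 5.57% were called higher and 7.01% lower. Without the perivascular resident class, Lgals3 was at 0.54 (adjusted p = 0.637), Lgals1 at 0.94 (adjusted p = 0.288), and edgeR called 0 of the 8 genes, with 2 lower at an unadjusted p under 0.05. Calls were few throughout in that fit, with 0.322% of 7449 genes higher and 0.295% lower.

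The same test was then run within each class with 10 or more cells in 2 or more libraries per diet, since no class had 20. In perivascular resident macrophage-like cells both Lgals3 and Lgals1 rose. There Lgals3 had 1935, 1627 and 1870 CPM in HFD, against 620, 853 and 828 in control, and Lgals1 1966, 2436 and 2289 in HFD, against 1219, 1255 and 1336 in control. Neither gene overlapped between diets. Lgals3 rose by 1.15 ± 0.16 (adjusted p = 0.00162), also without any 1 sample (1.03 to 1.23), and Lgals1 by 0.72 ± 0.14 (adjusted p = 0.0141, lost without HFD 2 at 0.0532). These were 2 of the 8 genes, while 2.6% of 2997 genes were called in that class. The HFD sums rest on 15, 11 and 16 cells.

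The 10 lipid-associated markers moved with this result. In perivascular resident macrophage-like cells they summed to 3391 to 4100 CPM in HFD and 2133 to 2428 in control, 10 of 10 being higher on average in HFD and none at 0. Gpnmb among them averaged 138 in HFD and 32.0 in control, and Trem2 570 in HFD and 169 in control. The 8 fibroblast markers summed to 760 to 1898 in HFD and 229 to 459 in control, 8 of 8 being higher and none at 0. The general macrophage markers summed to 46836 to 53931 in HFD and 38134 to 43617 in control, 6 of 10 being higher. The part of these lists in the rise of Lgals3 and Lgals1 was not tested.

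In lipid-associated macrophage-like cells, where Lgals3 peaked, its level did not pass the test. It was 12433, 11463 and 12983 CPM in HFD, against 13276 and 13108 in control 2 and 3, with control 1 left out for its single cell. Both controls were above the HFD samples, with a log2 fold change of -0.19 ± 0.10 (adjusted p = 0.384). The diet difference of Lgals3 was larger in the perivascular resident class than in the lipid-associated class by 1.18 ± 0.21 on the log2 scale (edgeR interaction over 5 samples, adjusted p = 0.00281), a comparison chosen after seeing the data in which 0.554% of 5416 genes were called.

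S100a6 was the gene of the 8 that was called in the lipid-associated class, where 3.39% of 7365 genes were. It had 1475, 1393 and 1525 CPM in HFD and 1984 and 2122 in control 2 and 3. The diets did not overlap, and it fell by 0.58 ± 0.12 (adjusted p = 0.00817), a call lost without control 3 (adjusted p = 0.154). S100a4 was at -0.78 ± 0.21 (adjusted p = 0.056) and Lgals1 at 0.48 ± 0.14 (adjusted p = 0.0646) in the same cells. S100a4 passed without HFD 3 (adjusted p = 0.0165) or control 2 (adjusted p = 0.0443), and Lgals1 without control 3 (0.86, adjusted p = 0.00356). Other marker lists moved in these cells. The classical monocyte list summed to 63.0 to 80.2 CPM in HFD and 149 to 310 in control, with 3 of 8 markers higher on average in HFD, 0 at 0 in HFD and 2 at 0 in control. The fibroblast list summed to 819 to 959 in HFD and 338 to 399 in control, with 7 of 8 higher, 0 at 0 in HFD and 1 in control. The endothelial list summed to 939 to 1323 in HFD and 1542 to 1858 in control, with 4 of 7 higher, 1 at 0 in HFD and 5 in control. Their part in the fall of S100a6 was not tested.

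cDC2-like cells had 4 of 7 tested genes called, beside 6.35% of 2440 genes. Lgals1 had 1580, 1535 and 1124 CPM in HFD, against 545, 840 and 657 in control, and rose by 0.98 ± 0.19 (adjusted p = 0.00786). Lgals3 had 2826, 3392 and 2588 in HFD, against 1133, 1422 and 2018 in control, and rose by 0.87 ± 0.19 (adjusted p = 0.0175). Both genes were higher in each HFD sample than in any control. S100a6 fell by 0.53 ± 0.14 (adjusted p = 0.047) and S100a10 by 0.76 ± 0.20 (adjusted p = 0.0456).

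These cDC2-like calls leaned on single samples. None was called without HFD 1, the call of Lgals3 was also lost without HFD 2 or control 2, and those of S100a6 and S100a10 held in 1 of 6 such fits each. Of the 10 macrophage markers 10 were higher on average in HFD, with sums of 10730 to 18768 in HFD and 2692 to 4083 in control. The lipid-associated list was higher for 9 of 10, with sums of 2934 to 4423 in HFD and 1000 to 1433 in control, and none of either list was at 0. Their part in the rise of Lgals1 and Lgals3 was not tested.

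In other macrophage-like, fibroblast-like and monocyte-like cells, edgeR called 0 of the 8 genes. At an unadjusted p under 0.05 there were 2 genes in other macrophage-like, 1 in fibroblast-like and 1 in monocyte-like cells. Over all genes, in that order of classes, 0.622% of 6748, 1.04% of 5469 and 0.0541% of 1849 were called. No other tool was run within classes. In other macrophage-like cells Lgals3 had 4148, 4103 and 3644 CPM in HFD and 3333 and 3017 in control 2 and 3 (0.32 ± 0.11, adjusted p = 0.321). In monocyte-like cells it had 3519, 3225 and 2521 in HFD and 1828, 2085 and 1986 in control (0.60 ± 0.15, adjusted p = 0.219). In both classes the HFD samples were higher without overlap, though past no threshold. The lipid-associated list summed to 6029 to 7208 in HFD and 4159 to 4947 in control in other macrophage-like cells, and to 3001 to 4829 in HFD and 1969 to 3291 in control in monocyte-like cells. In both classes 10 of 10 markers were higher on average in HFD, and their part was not tested.

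In fibroblast-like cells Lgals3 had 711, 661 and 674 CPM in HFD and 210 and 512 in control 1 and 3 (1.03 ± 0.27, adjusted p = 0.0933), and passed without control 3 (1.72, adjusted p = 7.05e-06). In HFD its percent of the macrophage-like level was near that of the macrophage genes given above, and control samples were not compared in this way. The lipid-associated markers summed there to 3170 to 3466 in HFD and 1681 to 1893 in control, 10 of 10 being higher on average in HFD and 2 at 0 in control. S100a6, at 3590, 3450 and 3236 in HFD and 3282 and 4825 in control 1 and 3, and S100a11, at 1443, 1566 and 1467 in HFD and 1527 and 1784 in control 1 and 3, had log2 fold changes of -0.20 ± 0.16 and -0.12 ± 0.15 and were not called (adjusted p = 0.705 and 0.864). The genes led by fibroblast-like cells thus showed no called diet difference inside them.

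**Figure D4:**
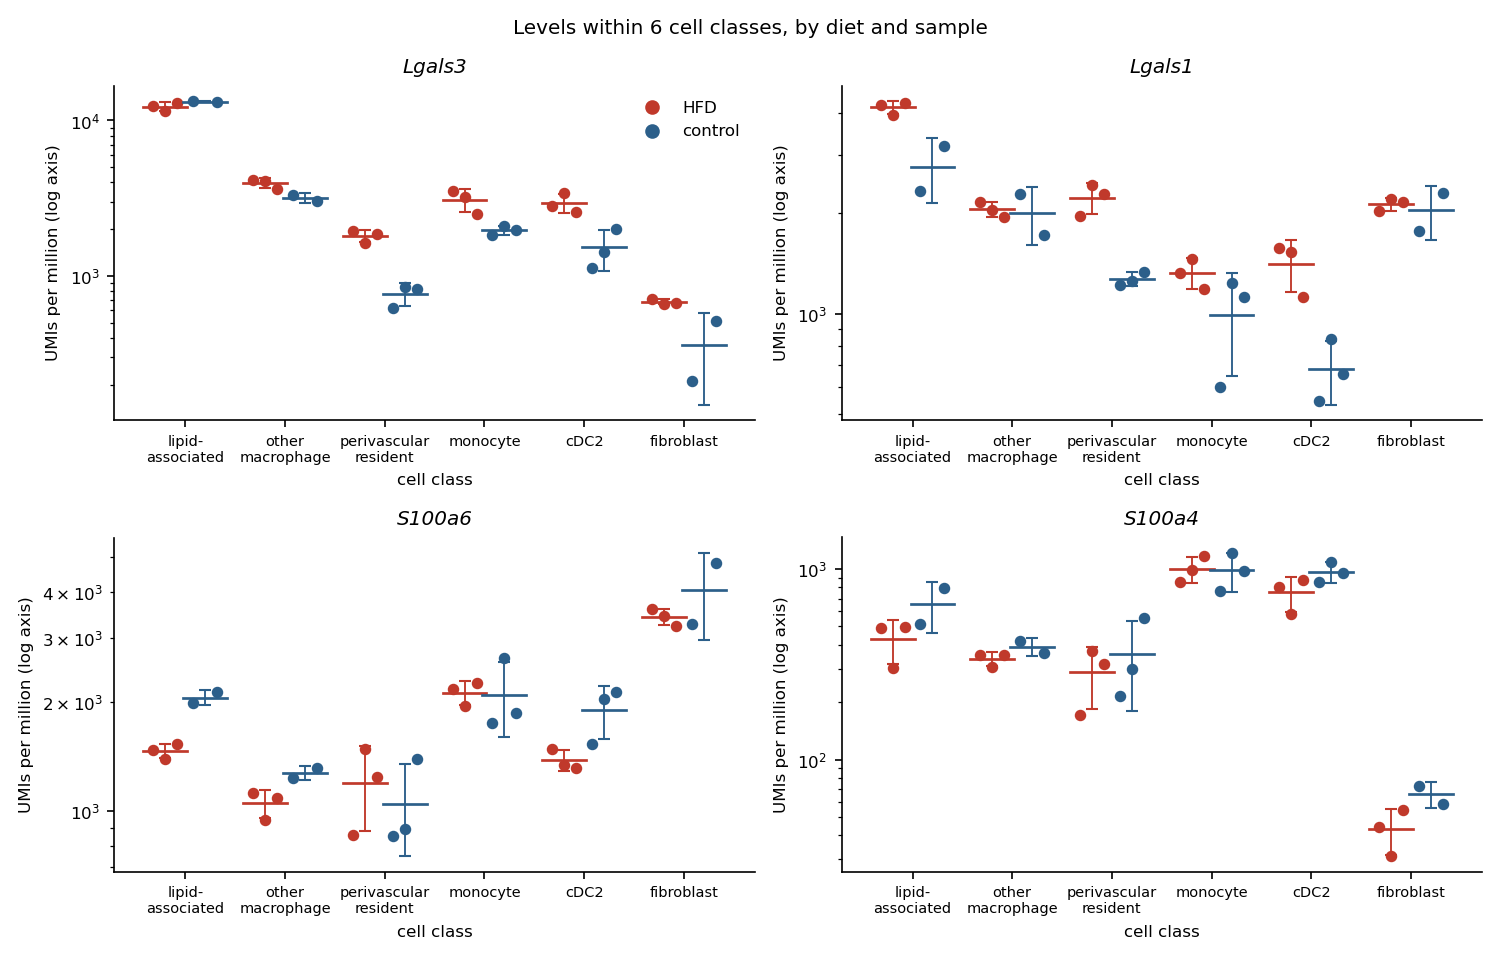
Levels of Lgals3, Lgals1, S100a6 and S100a4 (log axes, CPM) in 6 classes, 1 point per sample with at least 10 cells, HFD in red left of control in blue, with mean and SD. Lgals3 lies between 11463 and 13276 in lipid-associated macrophage-like cells of both diets and parts by diet in the perivascular resident class (1627 to 1935 in HFD, 620 to 853 in control).

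Tests of the difference between diet effects gave 2 more calls, out of tests in which macrophage-like cells were the comparison. The diet difference of Lgals1 in fibroblast-like cells minus that in macrophage-like cells was -0.79 ± 0.22 (adjusted p = 0.0239), where 2.5% of 8785 genes were called. That of S100a11 in cDC2-like cells minus that in macrophage-like cells was -0.92 ± 0.22 (adjusted p = 0.0271), where 2.38% of 6132 genes were called. The macrophage-like cells of both comparisons held unlike classes by diet, with 277 lipid-associated and 42 perivascular resident cells in HFD and 42 and 268 in control. Class makeup and level per cell cannot be told apart in them. In macrophage-like cells S100a11 had 0.52, which was not called, and -0.06 without the perivascular resident class. Lgals1 was at 0.05 within other macrophage-like cells. Between monocyte-like and macrophage-like cells edgeR called 0 of the 8, with 2 at an unadjusted p under 0.05 (Lgals1 and Lgals3) and 0.22% of 5466 genes called.

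**Figure D5:**
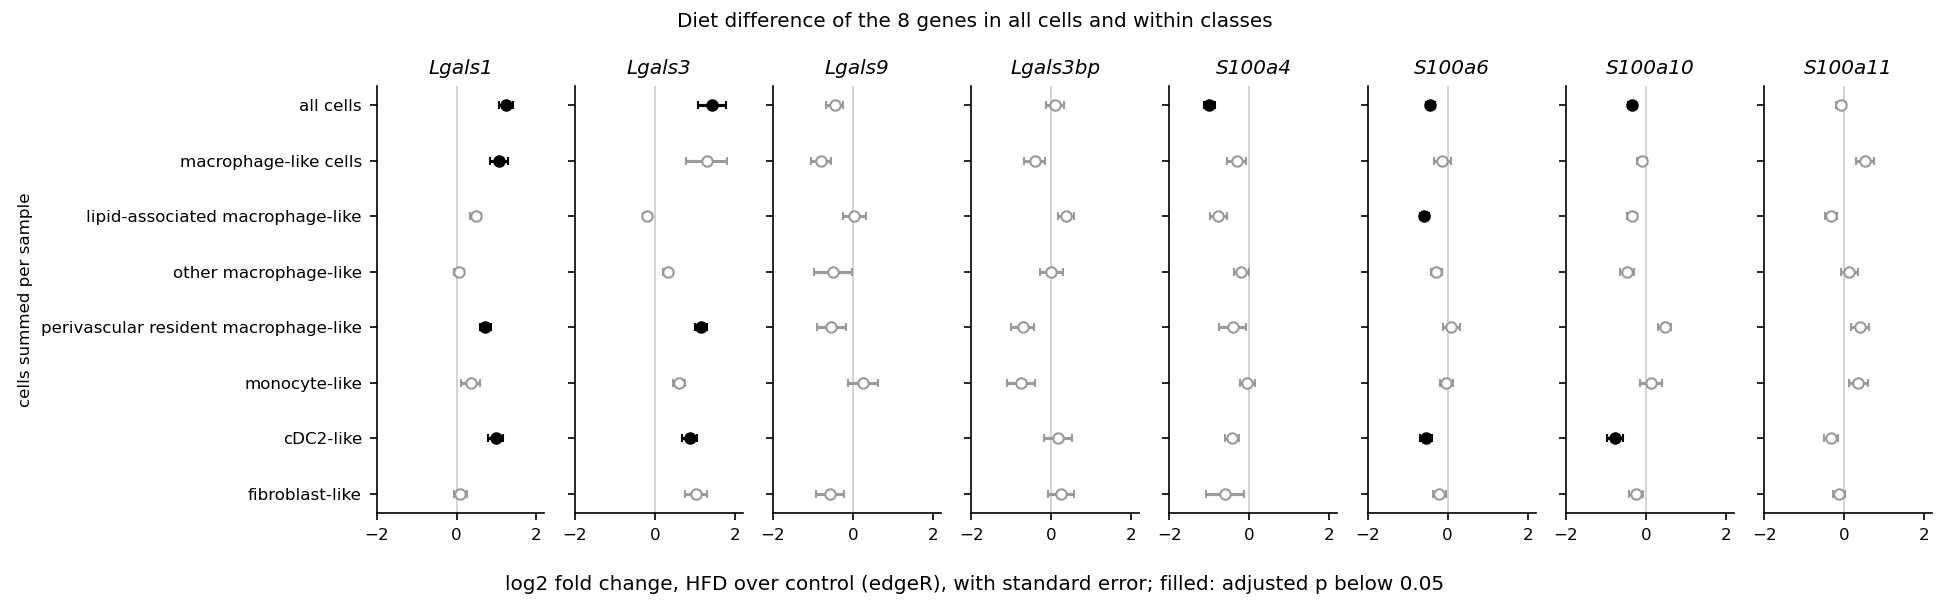
Log2 fold change of HFD over control with its standard error (horizontal axis) for each gene in all cells, macrophage-like cells and 6 classes; filled points have an adjusted p under 0.05. Lgals1 and Lgals3 lie right of 0 in the perivascular resident class (0.72 and 1.15), Lgals3 is at -0.19 in the lipid-associated class, and S100a4 is called only over all cells (-1.01) in this plot.

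The cells that carried each message also differed by diet. Lipid-associated macrophage-like cells held 71.0%, 55.5% and 62.6% of all Lgals3 UMIs in the HFD samples, against 5.29%, 34.2% and 57.1% in the control samples. Control 3 reached into the HFD range and control 1, with 1 such cell, did not. The same class held 51.0% ± 8.12 of Lgals1 UMIs in HFD and 16.3% ± 18.1 in control (SD, n = 3 each). Fibroblast-like cells held 23.2% ± 2.00 of S100a6 UMIs in HFD and 4.44% ± 2.48 in control, and 24.7% ± 3.898 of S100a11 UMIs in HFD and 5.79% ± 3.47 in control. The Ear2-led class, with 4 cells in HFD and 135 in control, held 0.531% ± 0.0940 of S100a4 UMIs in HFD and 20.3% ± 1.31 in control.

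The share of each gene in its family's UMIs was compared by diet, and no difference passed the adjusted test. S100a4 was 12.9%, 11.1% and 14.1% of the S100 UMIs in HFD and 18.6%, 18.8% and 19.0% in control. S100a11 was 18.6%, 19.2% and 19.4% in HFD and 14.9%, 15.6% and 13.9% in control. Lgals9 was 0.501% ± 0.0168 of the galectin UMIs in HFD and 2.23% ± 1.74 in control. None of these 3 genes overlapped between diets, and exact two-sided permutation tests gave each p = 0.1, the smallest that 3 against 3 allows, and 0.233 after Benjamini-Hochberg adjustment over the 7. In macrophage-like cells alone the same 3 did not overlap, with S100a11 at 17.5% ± 0.634 in HFD and 11.7% ± 1.12 in control. Shares of a family add to a whole, so those of S100a4 and S100a11 are not separate results. Family shares have no counterpart over all genes, so these counts say nothing particular about the genes. In another measure, the share of thinned cells with a UMI, 45.1% of 4027 genes did not overlap.

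To separate messages per cell from depth, each cell was thinned to 2000 UMIs, which left out 0 HFD and 37 control cells. The share of cells with at least 1 Lgals1 UMI was then 91.8%, 93.9% and 91.8% in HFD, against 65.5%, 74.1% and 79.1% in control. For S100a4 it was 42.2%, 37.3% and 41.1% in HFD, against 55.2%, 67.1% and 66.3% in control, and 9.48% in fibroblast-like cells of HFD, where its level was lowest. For Lgals3 it was 92.4% ± 1.87 in HFD and 80.2% ± 5.26 in control. Fibroblast-like cells of HFD, where the level of Lgals3 was lowest and its source was not tested, already had 69.8% ± 5.91. Shares of Lgals3 therefore say little about which cells made it.

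These 3 of 8 genes did not overlap between diets (exact permutation p = 0.1, the smallest possible, and 0.267 adjusted over the 8). Among 4027 genes seen on average in at least 5% of the thinned cells, 45.1% did not overlap either, so the count says nothing particular about the 8 genes. Unthinned, 5 of the 8 and 67.3% of 8770 genes did not overlap. Unthinned shares were 98.6% in HFD and 91.3% in control for Lgals1, 99.2% in HFD and 93.5% in control for Lgals3, and 69.7% in HFD and 84.2% in control for S100a4. In macrophage-like cells, thinned, Lgals3 was found in 98.9% ± 0.970 in HFD and 72.0% ± 6.33 in control, Lgals1 in 94.8% ± 0.834 in HFD and 82.3% ± 5.42 in control, and S100a11 in 50.7% ± 1.45 in HFD and 32.4% ± 6.30 in control. These 3 did not overlap between diets, and 34.1% of 3956 genes there did not either. S100a4 was found there in 45.0% ± 3.25 in HFD and 45.7% ± 12.0 in control.

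Within macrophage-like cells, some of the genes varied together from cell to cell. The Spearman correlation over cells had a median over the 6 samples of 0.60 for S100a4 with S100a6 (0.50 to 0.66) and of 0.58 for Lgals1 with Lgals3 (0.28 to 0.72). For S100a4 with S100a6 it was 0.655, 0.561 and 0.629 in HFD and 0.499, 0.633 and 0.572 in control, where the diets overlapped. For Lgals1 with Lgals3 it was 0.618, 0.610 and 0.718 in HFD and 0.277, 0.327 and 0.548 in control, where every control sample was under every HFD sample. This was not particular to that pair. The same held for Lgals1 with S100a4, S100a6, S100a10, S100a11 and Lgals9. It also held for S100a11 with S100a6 and S100a10, and for Lgals3bp with S100a10. Median UMIs per cell were lower in the control samples. The macrophage-like cells also held unlike classes, with 277 lipid-associated and 42 perivascular resident cells in HFD, against 42 and 268 in control. The part of depth or of class makeup was not tested. S100a6 with S100a10 had a median of 0.42 and Lgals3 with S100a11 of 0.40, while Lgals3bp was near 0 with every other gene (medians from -0.06 to 0.10). Cells of a sample share library and depth, and these values are descriptions.

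Over 28 sums of 1 class in 1 sample (10 classes, at least 20 cells each), S100a6 was most like S100a10 (Pearson r = 0.87) and S100a11 (0.79) among the 8, and S100a4 had -0.08 with S100a6. The genes outside the 8 most like each, of 2213 compared, were Anxa5 (0.96), Prdx1 and Uap1l1 for Lgals1, and Evl (0.94), Arhgdia and Atp6v0e for Lgals3. For S100a4 they were Ptprc (0.94), which encodes CD45, Cd52 and Emb, and for S100a11 Tmsb10 (0.93), Uqcc2 and Tmem167. For S100a6 they were Hk2 (0.81), Orc5 and Fn1, and for S100a10 Bhlhe40 (0.77), Ybx3 and Uqcc2. For Lgals3bp they were B2m (0.87), Hebp1 and Tspan4, and for Lgals9 P4hb (0.76), Sepw1 and Nucb2. Sums of 1 sample share its library, and no p is given.

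Related genes were described from lists of the same families and their partners. Of 9 genes in a list of annexins and Ahnak, proteins that S100 dimers bind, 8 were tested over all cells, and 5 rose and 1 fell (median log2 fold change 0.51, all genes -0.02). Anxa2, the S100a10 partner, had 1319, 1174 and 1236 CPM in HFD, against 538, 742 and 877 in control, and rose by 0.65 ± 0.15 (adjusted p = 0.00959), opposite in sign to S100a10. Anxa5 rose by 0.73 ± 0.15 (adjusted p = 0.00538) and Anxa4 by 0.79 ± 0.12 (adjusted p = 0.0014). Ahnak, a large scaffold that S100a10 and annexin A2 hold at the membrane, fell by 0.76 ± 0.09 (adjusted p = 0.000526). In macrophage-like cells 1 of 8 rose (Anxa4, 0.74, lost without HFD 1, HFD 2, HFD 3 or control 2) and 1 fell (Ahnak, -0.52, lost without HFD 1 or HFD 2). Anxa2 was at 1.02 ± 0.38 there (adjusted p = 0.0842) and passed without control 1 (0.65) or control 3 (1.60).

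Of 13 other S100 genes 6 were tested over all cells, and 2 rose and 0 fell (median log2 fold change -0.29). At an unadjusted p under 0.05, 1 was lower (S100a13, -0.20), and DESeq2 called 0 lower. In macrophage-like cells 5 were tested and 0 called by edgeR or DESeq2, with 2 lower at an unadjusted p under 0.05 (S100a8 and S100a9). S100a16 had 33.8, 45.4 and 38.7 CPM in HFD, against 7.49, 2.00 and 8.85 in control, and rose by 2.43 ± 0.30 (adjusted p = 0.000563). Its level in macrophage-like cells was at most 3.57 in any sample. S100a1 rose by 0.33 ± 0.10 (adjusted p = 0.034), a call lost without HFD 1, HFD 2, HFD 3 or control 2. S100a8 and S100a9, the neutrophil and monocyte alarmins, were chosen for mention after their values were seen. S100a8 had 47.3, 20.4 and 13.4 in HFD and 41.3, 183 and 8.48 in control, and S100a9 30.0, 11.4 and 8.36 in HFD and 38.2, 156 and 0.737 in control. Control 2 stood apart for both, and neither passed the test (adjusted p = 0.185 and 0.156).

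Of 7 other galectin genes 3 were tested over all cells, and Lgals8, which marks damaged vesicles, rose by 0.46 ± 0.13 (adjusted p = 0.0214, lost without HFD 1, HFD 2 or control 3, and not called by DESeq2 at 0.0831). In macrophage-like cells Lgals8 was the 1 tested and was not called (adjusted p = 0.489). Of 14 genes for galectin ligands and sugar-branching enzymes, all tested, 5 rose and 2 fell (median 0.15). Lamp1, a lysosomal glycoprotein that galectin-3 binds, rose by 0.61 ± 0.10 (adjusted p = 0.00217). Mgat5, whose enzyme adds the branches that galectins bind, had 16.8, 17.0 and 17.6 CPM in HFD and 8.26, 11.5 and 8.11 in control, and rose by 0.77 ± 0.18 (adjusted p = 0.0122) over all cells and by 1.33 ± 0.27 (adjusted p = 0.00962) in macrophage-like cells. St6gal1, whose enzyme caps these sugars with sialic acid, fell by 0.67 ± 0.15 (adjusted p = 0.0098). In macrophage-like cells 3 of 13 tested rose and 3 fell, among them the efferocytosis receptor Mertk, a receptor for galectin-3, which fell by 0.82 ± 0.19 (adjusted p = 0.0167, lost without HFD 1, HFD 2, control 1 or control 2). Of 3 S100 receptor genes 2 were tested over all cells, and edgeR and DESeq2 called 0 in either set of cells, with 1 at an unadjusted p under 0.05 in edgeR over all cells (Bsg, 0.28).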

How the data were processed

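Single-cell libraries from sorted cells of mouse visceral fat were analysed from the deposited matrices, whose values are whole-number UMI counts per gene and cell, given below as counts per 1000000 (CPM). Per the submitters' processing notes, the authors used Cell Ranger and Seurat 2.4, and mm9 is named as a build, with no role given for any of them. Cells with at least 200 genes and at most 10% mitochondrial UMIs were kept, and each barcode was counted only in the sample with most of its UMIs. No doublet caller was run and doublets were not removed. Cells were clustered with scanpy 1.11.5 and leidenalg 0.10.2 (resolution 1.0, 2000 variable genes, 30 components, 20 neighbours) without 36 galectin, S100 and annexin genes. A cluster was named from a list whose mean log2 excess over the other cells reached 1.2 with at least 3 markers over 2-fold. For a list other than a macrophage one, the general macrophage markers also had to be lower on average than in the other cells. A cluster with at least 6 of 10 general macrophage markers above the rest, and a positive mean excess of that list, was called other macrophage-like. For both macrophage kinds, the top 10 genes could hold no more markers of another list than macrophage ones. These thresholds were chosen after seeing the data.

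Counts were summed per sample and per class. They were tested with edgeR 4.0.16 (quasi-likelihood, TMM factors, filterByExpr, Benjamini-Hochberg adjustment over all genes tested, R 4.3.3), on the 3 HFD and 3 control samples. Standard errors were derived from the fold change and its p. A class entered where 2 or more libraries per diet held 10 or more of its cells, a limit chosen after seeing the data because no class reached 20. Shares were compared by exact permutation tests (scipy 1.17.1). The script was tested on simulated data.

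The named genes were the 8 members, at most 4 genes of each other list past the threshold by smallest p, and the 3 genes most like each member. S100a8, S100a9, S100a13 and Bsg were named after their values were seen. The members and lists were chosen with earlier results of these data known. Alternatives were DESeq2 1.42.0, RLE factors, library totals, no low-count filter, a replicate block, each sample left out, other barcode and cell filters, thinning to 2000 UMIs, other clusterings and cell classes left out.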

Additional observations from a re-analysis of the deposited data

Results flagged for a closer look

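The diet difference of 3 genes differed between cell classes by an edgeR interaction test. Lgals3, HFD over control, was higher by 1.18 on the log2 scale in perivascular resident macrophage-like cells than in lipid-associated macrophage-like cells (adjusted p = 0.00281), with a log2 fold change of 1.15 in the first class and -0.19 in the second. Lgals1 in fibroblast-like cells minus macrophage-like cells was at -0.79 (adjusted p = 0.0239), with 0.10 in fibroblast-like and 1.06 in macrophage-like cells. S100a11 in cDC2-like cells minus macrophage-like cells was at -0.92 (adjusted p = 0.0271), with -0.33 in cDC2-like and 0.52 in macrophage-like cells. The 0.52 was not called (adjusted p = 0.138) and was -0.06 without perivascular resident cells. For Lgals1, macrophage-like cells without the perivascular resident class gave 0.94 (adjusted p = 0.288), and other macrophage-like cells alone 0.05. Macrophage-like cells held 277 lipid-associated and 42 perivascular resident cells in HFD, against 42 and 268 in control, so class makeup and level per cell cannot be told apart in the last 2 comparisons. The Lgals3 comparison rests on 15, 11 and 16 resident cells in HFD and on 12 and 29 lipid-associated cells in control 2 and 3. In the resident class 10 of 10 lipid-associated, 8 of 8 fibroblast and 6 of 10 general macrophage markers were also higher on average in HFD. Their part was not tested.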

How the results depend on the processing

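Over all cells 5 of the 8 genes were called. The count was 3 with a replicate block, with thinned cells and with library totals, and 3 to 6 without 1 sample. In macrophage-like cells 1 was called. That count was 4 with no filter on low counts, 4 with no filter on cells, 4 with clusters at resolution 0.5, 3 with barcodes of exactly 1 sample, 3 with thinned cells, 3 without lipid-associated cells, 0 with barcodes counted as deposited, 0 without perivascular resident cells, and 0 to 5 without 1 sample. Without 1 sample the counts were 1 to 2 in lipid-associated (from 1), 1 to 2 in perivascular resident (from 2), 0 to 1 in fibroblast-like (from 0) and 0 to 4 in cDC2-like cells (from 4). Genes whose shares of cells did not overlap numbered 3 thinned and 5 unthinned. The causes were not tested.

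Of the single-gene results over all cells and in macrophage-like cells, 531 kept their direction and side of the threshold, 41 became and 66 ceased to be called, and 23 turned sign. Over all cells these were Lgals3bp (-0.13 to 0.47 without 1 sample), S100a10 (0.063, barcodes of exactly 1 sample) and S100a11 (-0.16 to 0.053 without 1 sample, 0.68 with barcodes of exactly 1 sample, 0.10 thinned, 0.064 on library totals). In macrophage-like cells they were Lgals3bp (-0.67 to 0.060 without 1 sample), S100a4 (-0.54 to 0.012 without 1 sample), S100a6 (-0.35 to 0.10 without 1 sample, 0.18 at resolution 0.5), S100a10 (-0.16 to 0.0067 without 1 sample, 0.031 with no cell filter, 0.16 at resolution 0.5, 0.0079 on library totals), S100a11 (-0.063 without perivascular resident cells) and S100a1 (0.0038 with RLE factors, 0.047 with no low-count filter, 0.0032 in DESeq2, -0.044 to 0.059 without 1 sample, 0.13 with no cell filter, 0.32 with barcodes of exactly 1 sample, 0.17 at resolution 0.5, 0.077 on library totals).

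Deviations of samples with the same replicate number from their diet's mean had correlations from -0.157 to -0.0689 over all cells and from -0.229 to 0.0139 in macrophage-like cells. Each mean was of only 3 samples, so these values cannot decide whether the numbers pair the samples. With the replicate block, S100a6 (adjusted p = 0.0572) and S100a10 (adjusted p = 0.0857) were not called over all cells. Within classes, 13 of 47 results of the 8 genes turned sign without 1 sample, none of them called, among them S100a4 in perivascular resident cells (-0.42, and -0.69 to 0.07 without 1 sample) and S100a10 in fibroblast-like cells (-0.25, and -0.43 to 0.06). Class results were not refitted with other barcode counting, and classes of 10 to 16 cells limit their precision.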
